A study of Rattus norvegicus with 14 samples.

Results

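Insulin and the insulin-like growth factors (IGFs) act through related receptors, and the 10 genes described here encode the growth factors Igf1 and Igf2, the receptors Igf1r and Insr, the docking proteins Irs1 and Irs2, and the binding proteins Igfbp3, Igfbp4, Igfbp5 and Igfbp6. They were taken by gene name and not ranked by their values, although the list was made with earlier results of these data known. The arrays carried 14 probes for them among 30367 probes, 1 probe for 6 genes and a pair for the other 4, and all 14 were well above background on all 14 arrays. They are 10 of the 16275 named genes that passed a filter on dim probes, and each is represented by its brightest probe. No difference between diets passed the test for any of the 10.

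The study compared 14 plantaris muscles, a calf muscle of mostly fast fibres, from Wistar rats kept on 3 diets, with the RNA of each muscle on 1 Agilent array. Repletion muscles (n = 4) came from rats first fed a diet depleted of vitamin D and then one with it restored, depletion muscles (n = 6) from rats fed the depleted diet, and control muscles (n = 4) from rats fed 1000 IU of vitamin D per kg of diet. The labels do not state age, sex, feeding times or how much vitamin D the other diets held. The titles call the muscles biological replicates. Depletion replicate 1 is called depletion by its title and repletion by its diet field, and was kept as depletion.

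Muscle makes IGF1 itself, and IGF1 from muscle and from the liver acts on the fibres through the IGF1 receptor. Insulin acts through its own receptor, and both receptors pass the signal to the docking proteins, which recruit PI3 kinase and so switch on Akt, glucose uptake and protein synthesis through mTOR, while FoxO factors are held inactive. The binding proteins carry IGFs in blood and tissue and can hold them back from the receptor or bring them to it.

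The probe sequences below are shown because they fix which piece of each transcript was read. All are from the array files, which place them on the rat build rn4, and the letters run along the transcript from 5′ to 3′. In the Igf1 probe, the dimmer of a pair, capitals mark the last codon of the mature growth factor and the first codon of the E domain that is cut off. In the Irs1 probe, capitals mark the stop codon. The Igf1r and Igfbp6 probes lie within coding sequence.
Igf1: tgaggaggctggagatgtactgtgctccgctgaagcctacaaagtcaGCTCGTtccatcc
Igf1r: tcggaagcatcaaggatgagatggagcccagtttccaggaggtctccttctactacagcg
Irs1: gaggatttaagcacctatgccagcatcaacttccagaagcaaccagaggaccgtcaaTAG
Igfbp6: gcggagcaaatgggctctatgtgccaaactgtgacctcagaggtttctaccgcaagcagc
They lie at chr7:24587916-24587975, chr1:122989150-122989209, chr9:81633784-81633843 and chr7:140888422-140888481, in the order shown, Irs1 on the minus strand and the others on the plus strand. The brighter Igf1 probe lies at chr7:24604715-24604774 and Igf2 was read at chr1:202906641-202906700. Insr was read at chr12:3086616-3086675 and Irs2 at chr16:83403814-83403873. The remaining binding proteins were read at chr14:87959244-87959303 for Igfbp3, chr10:87834213-87834272 for Igfbp4 and chr9:72000312-72000371 for Igfbp5. Exon and UTR annotation of this build was not used here.

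A level is the log2 signal of a probe minus that of its array's 75th percentile, so a difference of 1 is a 2-fold change and levels of different probes cannot be set against each other. All 12 muscle fibre markers were well above background on all arrays, with the skeletal actin Acta1 at 7.75 to 8.24. Arrays were scanned on 5 slides, and 28% of 26391 probes differed between slides at an adjusted p under 0.05, so slide was a term in the fit. Slide 1 held repletion replicate 1, depletion replicate 1 and control replicates 1 and 2. Slide 2 held repletion replicate 2, depletion replicate 2 and control replicate 3, and slide 4 held depletion replicate 5 and control replicate 4. Slides 3 and 5 held no control. In whole muscle, fewer cells of a type and less RNA per cell cannot be told apart.

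Depletion replicates 1 and 2 stood apart in liver genes. Albumin (Alb) was at 0.93 and 1.06 on these arrays, against -9.60 to -5.67 on the other 12. Transthyretin (Ttr) was at -1.01 and 0.27, against -5.56 to -4.62, and fibrinogen beta (Fgb) at -2.53 and -1.72, against -9.38 to -5.90. Apoa1 was at -4.69 and -4.36, against -8.09 to -5.26, while Serpina1, at -3.11 and -3.04, lay within the range of the other arrays (-5.58 to -2.43). Of the 5 liver genes listed, 2 were well above background on all arrays. Over the list the mean deviation from each gene's average was 3.44 and 3.97 on these 2 arrays, and the summed level ran from -3.99 to -2.39 in repletion, -4.18 to 1.91 in depletion and -3.18 to -2.05 in control. Igf1, which the liver also makes, was at 2.11 and 2.59 on the same arrays, against 1.71 to 2.53 on the other 12. Fitted differences of named genes that involve depletion, second probes aside, are therefore also given without both arrays, a choice made after seeing the data. In those fits slide 4, with 1 array of each, is the only slide that holds both depletion and control. A shift can thus come from the lost slides as well as from the liver genes, and its cause was not tested. Igfbp2, a binding protein that the liver makes too, was highest of all 14 arrays on depletion replicate 1, at -0.70, but on depletion replicate 2 it was at -2.82, within the range of the other 12 (-4.54 to -2.03). Igfbp1 (-1.62 and -2.18) and Igfals (-4.73 and -4.17), a binding protein and a carrier subunit that the liver makes, lay within the range of the other 12 on both arrays.

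**Figure D1:**
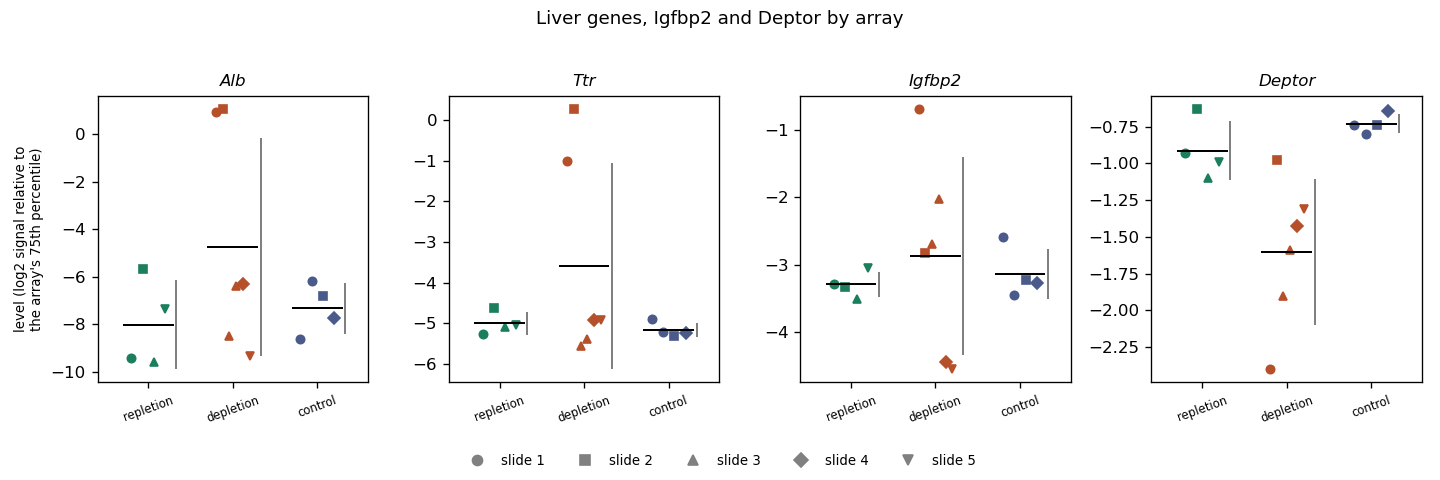
Levels of the liver genes Alb and Ttr, the binding protein gene Igfbp2 and the mTOR inhibitor gene Deptor (y axis, log2 signal relative to the array's 75th percentile; x axis, diet), 1 point per array with the marker giving the slide, black lines for group means and grey bars for 1 SD. Alb and Ttr are high on depletion replicates 1 and 2. All 6 depletion arrays lie below all 4 control arrays for Deptor, a gene named for its small unadjusted p.

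The comparison of depletion with control asked how a lack of dietary vitamin D bears on muscle transcripts, and that of repletion with depletion what followed when it was restored. For the 10 genes, limma called 0 in each of the 3 comparisons at an adjusted p under 0.05, against 0% of 26391 probes in each. At an unadjusted p under 0.05, 0 of the 10 had a difference between depletion and control, against 4.81% of probes (573 higher, 696 lower). Between repletion and depletion it was again 0, against 3.43% of probes, and between repletion and control 0, against 1.98%. The lowest adjusted p over all probes was 0.935, 0.836 and 1 for repletion against depletion, depletion against control and repletion against control. A test for any difference among the 3 diets called 0% of probes, with 3.08% of probes and none of the 10 genes at an unadjusted p under 0.05.

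In depletion against control, 6 of the 10 genes were higher and the median difference was 0.20, against -0.02 over all genes, and 0.14 without depletion replicates 1 and 2. In repletion against depletion 3 were higher, with a median of -0.03 against 0.03 over all genes, and -0.13 without both arrays. In repletion against control 6 were higher, with a median of 0.15 against 0.02. For each of the 10 genes the arrays of the groups overlapped in all 3 comparisons. Group means next to each other in order differed by less than the larger of their SDs. The share of all genes that overlapped in this way was not counted, so this is not a trait of the 10. The 95% intervals all included 0. They lay within a 2-fold change either way for 7 genes in depletion against control (all but Igf2, Igfbp5 and Irs2) and for 8 in repletion against depletion (all but Igf2 and Igfbp5). In repletion against control 5 intervals did, those of Igf1, Igf1r, Insr, Igfbp3 and Igfbp6.

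Differences in markers of other cell types did not pass the test either, with 0 called by limma in these lists, but several lists leaned 1 way. Of 7 macrophage genes, 7 were higher in depletion than in control (median difference 0.48) and 6 were higher in repletion than in control (0.45). Their summed level, in which the brightest probes weigh most, ran from 3.91 to 4.32 in repletion, 3.14 to 4.76 in depletion and 1.42 to 4.12 in control. Their mean deviation from each gene's average ran from -0.018 to 0.18 in repletion, -0.56 to 0.44 in depletion and -0.37 to -0.016 in control. Of 8 measured fibroblast genes, 7 were lower in depletion than in control (-0.35) and 7 were higher in repletion than in depletion (0.39), with summed levels of 4.78 to 5.59 in repletion, 4.53 to 5.43 in depletion and 4.97 to 5.86 in control. Of 6 adipocyte genes, 6 were lower in repletion than in depletion (-0.25) and than in control (-0.24), with summed levels of 3.43 to 4.11 in repletion, 3.50 to 4.64 in depletion and 3.23 to 4.83 in control. Of 3 measured erythroid genes, 3 were higher in depletion than in control (0.89), as were all 5 liver genes (2.46). These medians include depletion replicates 1 and 2, and depletion replicate 1 was the highest array in the erythroid list (mean deviation 1.63). Over depletion replicates 3 to 6 the liver genes averaged -7.62 (Alb), -5.20 (Ttr), -7.90 (Fgb), -6.37 (Apoa1) and -4.16 (Serpina1). Control arrays ran from -8.63 to -6.16, -5.31 to -4.90, -7.34 to -5.90, -8.09 to -6.10 and -4.18 to -2.43, in the same order. Of 5 Schwann cell genes, 5 were higher in repletion than in depletion (0.39). The summed levels of the 3 diets overlapped in each list, and Tcf21 of the fibroblast list was not well above background on any array. The part of these cell types in the levels of the 10 genes was not tested.

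**Figure D2:**
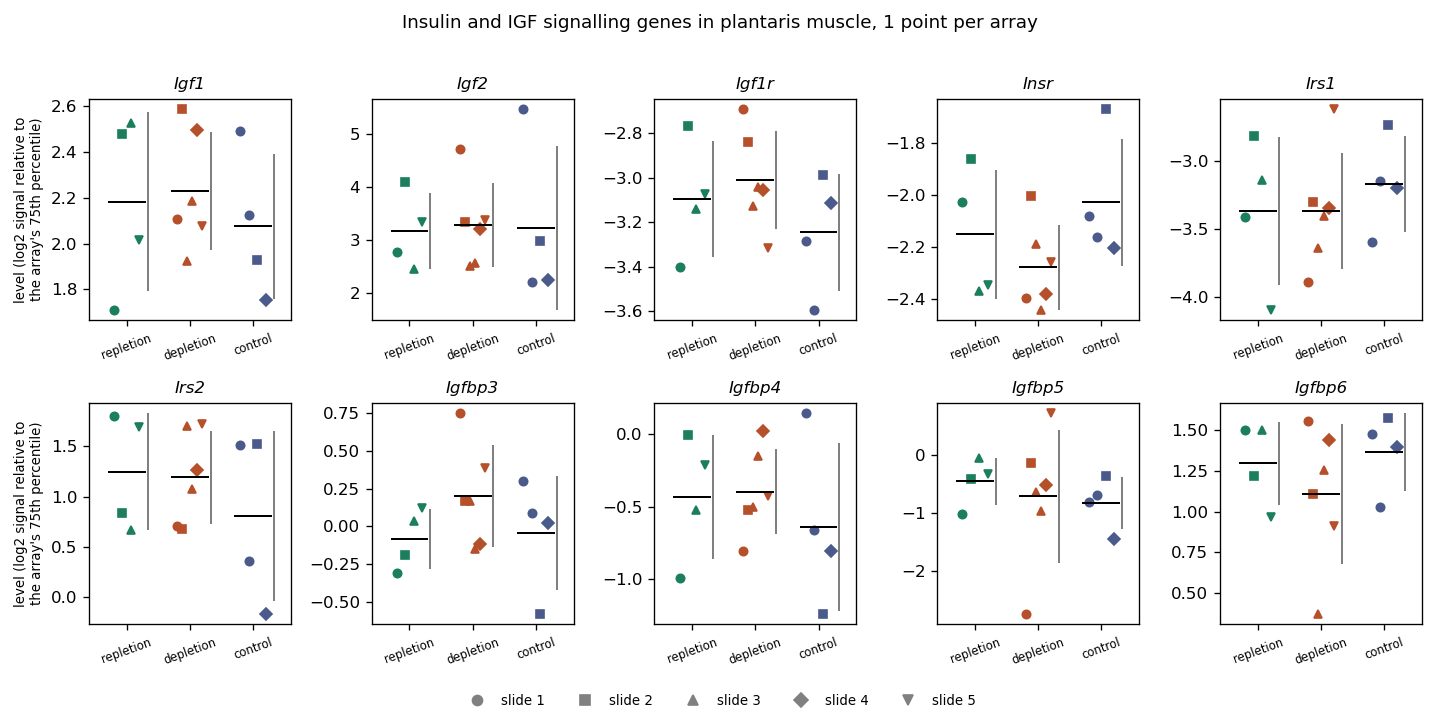
Levels of the 10 genes (y axis, log2 signal relative to the array's 75th percentile, with a range of its own in each panel; x axis, diet), 1 point per array with the marker giving the slide, black lines for group means and grey bars for 1 SD. The groups overlap in every panel, and the Igf2 and Igfbp5 panels show single arrays far from the rest of their group.

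Of the growth factors, Igf1 ranged over 1.84-fold between arrays. It was at 1.71, 2.48, 2.53 and 2.02 in repletion muscles, ran from 1.92 to 2.59 with a median of 2.15 in depletion muscles, and was at 2.49, 2.13, 1.93 and 1.75 in control muscles. The lowest array was from repletion and the highest from depletion, and 5 of 6 depletion arrays lay above the control mean. Group means were 2.18 ± 0.39 in repletion (SD, n = 4), 2.23 ± 0.26 in depletion (n = 6) and 2.08 ± 0.32 in control (n = 4). The fitted difference was 0.19 ± 0.24 (SE) for depletion minus control, with limma's adjusted p at 0.893. It was -0.05 ± 0.22 for repletion minus depletion and 0.14 ± 0.27 for repletion minus control. Without depletion replicates 1 and 2 the first 2 of these were 0.15 and -0.0086. The second probe, the one that spans the end of the mature peptide, gave 0.09 ± 0.26 for depletion minus control.

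Igf2, a growth factor best known from fetal growth, had the largest SD over arrays of the 10 genes. It was at 2.77, 4.09, 2.45 and 3.34 in repletion muscles, ran from 2.50 to 4.71 with a median of 3.27 in depletion muscles, and was at 5.48, 2.19, 2.97 and 2.23 in control muscles. The highest array was control replicate 1 and the next was depletion replicate 1, both on slide 1, where control replicate 2 was the lowest of all 14. Group means were 3.16 ± 0.72 in repletion (SD, n = 4), 3.28 ± 0.80 in depletion (n = 6) and 3.22 ± 1.55 in control (n = 4). The fitted difference for depletion minus control was 0.55 ± 0.66 (adjusted p = 0.890), a 1.46-fold ratio with a 95% interval of 0.519 to 4.11. This value was 1.199 without control replicate 1, 0.052 without control replicate 2 and 0.23 without depletion replicate 1. It was -0.35 ± 0.61 for repletion minus depletion and 0.19 ± 0.73 for repletion minus control. The first 2 were 0.41 and -0.30 without depletion replicates 1 and 2.

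Both receptor genes were among the steadier members. Igf1r, the receptor of IGF1, was at -3.40, -2.76, -3.14 and -3.08 in repletion muscles, ran from -3.32 to -2.69 with a median of -3.05 in depletion muscles, and was at -3.28, -3.60, -2.99 and -3.12 in control muscles. The highest arrays were depletion replicate 1, repletion replicate 2 and depletion replicate 2, and the lowest was control replicate 2. The fitted difference was 0.28 ± 0.16 for depletion minus control (adjusted p = 0.836), with 5 of 6 depletion arrays above the control mean, and -0.08 ± 0.15 for repletion minus depletion. Leaving out depletion replicates 1 and 2 gave 0.05 and 0.07. For repletion minus control the difference was 0.20 ± 0.18.

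Insr, the insulin receptor, was at -2.03, -1.86, -2.37 and -2.35 in repletion muscles, ran from -2.44 to -2.003 with a median of -2.32 in depletion muscles, and was at -2.08, -2.16, -1.67 and -2.20 in control muscles. Only 1 of 6 depletion arrays lay above the control mean, yet its level of -2.003 was above 3 of the 4 control arrays. The fitted difference for depletion minus control was -0.20 ± 0.11 (adjusted p = 0.836), and within slides 1, 2 and 4 the difference was -0.28, -0.34 and -0.18. It was -0.06 without depletion replicates 1 and 2. For repletion minus depletion the difference was 0.08 ± 0.10, or -0.02 without them, and for repletion minus control -0.12 ± 0.12. The second Insr probe gave 0.02 ± 0.14 for depletion minus control, so the pair did not share a direction. Among the 10 genes Insr alone had an unadjusted p under 0.05 for differences between slides (adjusted p = 0.119).

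The docking proteins Irs1 and Irs2 carry the signal from both receptors to PI3 kinase. Irs1 was at -3.41, -2.82, -3.14 and -4.10 in repletion muscles, ran from -3.89 to -2.62 with a median of -3.38 in depletion muscles, and was at -3.60, -3.15, -2.74 and -3.20 in control muscles. The extremes were repletion replicate 4 at the low end and depletion replicate 6 at the high end, both on slide 5. In the fit the difference was -0.26 ± 0.31 for depletion minus control (adjusted p = 0.887), -0.01 ± 0.28 for repletion minus depletion and -0.27 ± 0.33 for repletion minus control. The first 2 of these were 0.12 and -0.30 without depletion replicates 1 and 2. The second Irs1 probe gave -0.18 ± 0.41 for depletion minus control.

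Irs2 was at 1.80, 0.83, 0.67 and 1.69 in repletion muscles, ran from 0.67 to 1.72 with a median of 1.17 in depletion muscles, and was at 1.51, 0.36, 1.52 and -0.17 in control muscles. Control replicates 2 and 4 were the 2 lowest of all 14 arrays, while control replicates 1 and 3 lay close to the highest depletion arrays. The fitted difference was 0.27 ± 0.43 for depletion minus control (adjusted p = 0.911), -0.08 ± 0.39 for repletion minus depletion and 0.20 ± 0.47 for repletion minus control. Within slides 1, 2 and 4 depletion minus control was -0.22, -0.84 and 1.43. Without depletion replicates 1 and 2 the difference for depletion minus control was 1.00 (adjusted p = 0.987). That for repletion minus depletion was -0.61 (adjusted p = 0.953). Slide 4 was then the only slide with both depletion and control.

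Among the binding proteins, Igfbp3, the main carrier of IGFs in blood, had the smallest p for repletion against depletion. It was at -0.31, -0.19, 0.04 and 0.12 in repletion muscles, ran from -0.15 to 0.75 with a median of 0.17 in depletion muscles, and was at 0.30, 0.09, -0.58 and 0.02 in control muscles. All 4 repletion arrays lay below the depletion mean of 0.20, and the highest array was depletion replicate 1. The fitted difference for repletion minus depletion was -0.33 ± 0.19 (adjusted p = 0.935), and within slides 1, 2, 3 and 5 it was -1.06, -0.36, 0.03 and -0.27. For depletion minus control it was 0.28 ± 0.21 (adjusted p = 0.838), and for repletion minus control -0.05 ± 0.23. Without depletion replicates 1 and 2 the first 2 of these were -0.07 and -0.08.

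Igfbp4, which mostly holds IGFs back from the receptor, was at -0.99, -0.0039, -0.53 and -0.21 in repletion muscles, ran from -0.81 to 0.03 with a median of -0.46 in depletion muscles, and was at 0.15, -0.66, -1.24 and -0.80 in control muscles. The highest and the lowest array were both from control. The fitted difference was 0.20 ± 0.34 for depletion minus control (adjusted p = 0.919), -0.0072 ± 0.31 for repletion minus depletion and 0.19 ± 0.37 for repletion minus control. Within slides 1, 2 and 4 depletion minus control was -0.55, 0.72 and 0.83, and the fitted value was 0.45 without depletion replicates 1 and 2, with -0.18 for repletion minus depletion.

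Igfbp5, a binding protein abundant in muscle and regulated when myoblasts differentiate, spanned 3.46 log2 units between its lowest and highest array. It was at -1.02, -0.42, -0.05 and -0.33 in repletion muscles, ran from -2.74 to 0.72 with a median of -0.58 in depletion muscles, and was at -0.81, -0.68, -0.37 and -1.45 in control muscles. Both the lowest and the highest array were from depletion, replicates 1 and 6. The fitted difference was -0.35 ± 0.48 for depletion minus control (adjusted p = 0.901), 0.17 ± 0.44 for repletion minus depletion and -0.17 ± 0.52 for repletion minus control. Each sign turned without depletion replicates 1 and 2, to 0.35, -0.27 and 0.07. Within slides 1, 2 and 4 depletion minus control was -1.99, 0.22 and 0.93. The second Igfbp5 probe gave -0.72 ± 0.51 for depletion minus control.

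Igfbp6, which prefers IGF2 to IGF1, was at 1.501, 1.22, 1.502 and 0.97 in repletion muscles, ran from 0.37 to 1.56 with a median of 1.18 in depletion muscles, and was at 1.48, 1.03, 1.57 and 1.40 in control muscles. The lowest array was depletion replicate 3 and the highest control replicate 3. Depletion minus control was -0.07 ± 0.24 in the fit (adjusted p = 0.964), with 0.22 ± 0.22 for repletion minus depletion and 0.15 ± 0.26 for repletion minus control. Without depletion replicates 1 and 2 the first 2 were -0.21 and 0.31.

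**Figure D3:**
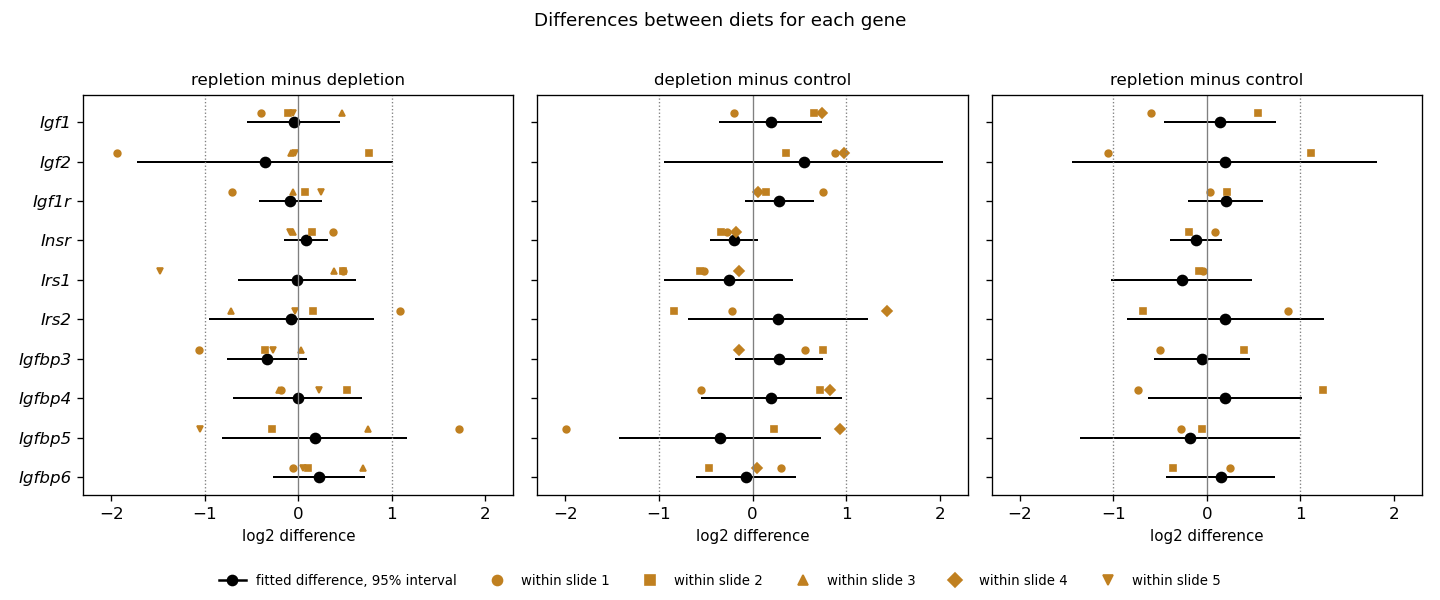
Log2 differences between diets for each of the 10 genes (x axis; dotted lines mark 2-fold either way), with black points and lines for the fitted difference and its 95% interval and orange markers for the difference within each slide that held both diets. All 30 intervals include 0, and the markers of different slides lie on both sides of 0 for most genes.

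Within the slides that held depletion and control, 4 genes kept 1 direction on all 3: Igf2 was higher by 0.88, 0.36 and 0.97 on slides 1, 2 and 4, Igf1r was higher by 0.75, 0.15 and 0.06, Irs1 was lower (-0.51, -0.56 and -0.15) and Insr was lower by the values above. Igf1 was lower on slide 1 (-0.20) and higher on slides 2 and 4 (0.66 and 0.74). Over the 4 slides that held repletion and depletion, no gene kept 1 direction. Each such value rests on 1 or 2 arrays a diet. Some genes keep 1 direction on 3 slides by sign alone, and the share of all genes that did so was not counted. For Igf2 on slide 1, depletion replicate 1 (4.71) lay between control replicates 1 and 2 (5.48 and 2.19), so the direction there comes from their mean.

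The 10 genes differed in how much they varied between arrays. Over the 14 arrays the SD was 0.96 for Igf2, above that of 90.5% of the 16275 genes, 0.78 for Igfbp5 (85.1%) and 0.60 for Irs2 (77.2%). It was 0.22 for Insr (33.3%), 0.25 for Igf1r (38.3%) and 0.30 for Igf1 (47.3%), against a median of 0.31 over all genes. The remaining 4 genes lay between 0.32 and 0.42. As a fold range over the arrays this was 11.004-fold for Igfbp5, 9.75-fold for Igf2, 3.90-fold for Irs2 and 1.71-fold for Insr. These values include differences between slides. With diet and slide fitted, the SD left over was 0.367 for Igf1, above that of 72.25% of genes without a missing value. It was 0.23 for Igf1r (46.5%) and 0.13 for Insr (13.6%), against a median of 0.24. For Igf1r, which has 10 copies of its probe on each array, the SD between copies had a median of 0.19, and the level used is their mean.

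Where a gene had a pair of probes, the pair tracked each other over the 14 arrays except for Insr. Pearson's r was 0.97 and Spearman's rho 0.96 for Igf1 (permutation p = 1e-05 for each, the smallest that 100000 permutations can give, two-sided; Benjamini-Hochberg adjusted over 4 relations 4e-05). Without the 2 arrays farthest from the median r was 0.95 for Igf1, and 0.98 within slides. For Irs1 r was 0.80 and rho 0.82 (permutation p = 0.00025 and 0.00059, adjusted 0.00033 and 0.0012), with r at 0.75 without the 2 farthest arrays and 0.97 within slides. For Igfbp5 r was 0.92 and rho 0.63 (permutation p = 0.00024 and 0.018, adjusted 0.00033 and 0.024), and r fell to 0.52 without the 2 farthest arrays, so much of that relation rests on them; within slides it was 0.95. The Insr probes had r = 0.51 and rho = 0.39 (permutation p = 0.066 and 0.164, the same when adjusted), -0.07 without the 2 farthest arrays and 0.43 within slides.

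**Figure D4:**
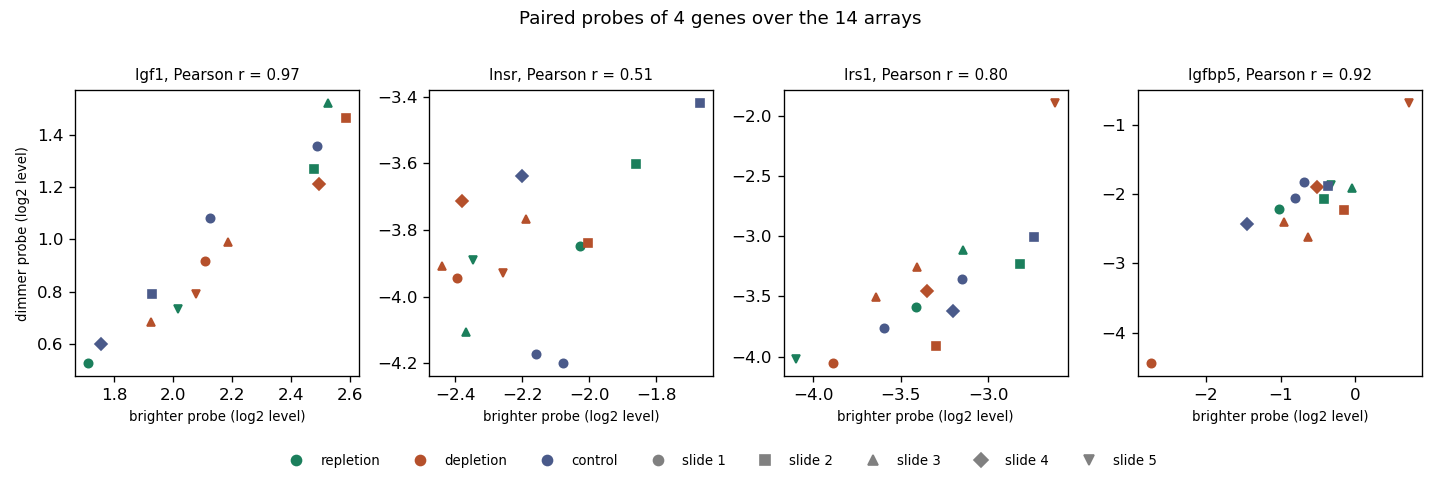
Level of the brighter probe (x axis, log2) against the dimmer probe (y axis, log2) of Igf1, Insr, Irs1 and Igfbp5, 1 point per array, coloured by diet with the marker giving the slide. The Igf1 points lie close to a line (r = 0.97), the Insr points do not (r = 0.51), and depletion replicate 1 lies far below the other arrays for Igfbp5.

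The other genes of the pathway were taken from a list of 72 ligands, binding proteins, receptors, adaptors, kinases and targets, of which 67 were measured. Igf2bp1 and Irs4 were not well above background on any array, and Pappa2, Igf2bp3 and Foxo1 were not analysed here. limma called 0 of the 67 in each comparison, against 0% of probes. At an unadjusted p under 0.05, 2 were lower and 0 higher in depletion than in control, against 4.81% of probes. In repletion against depletion 2 were higher and 0 lower, against 3.43%, and in repletion against control it was 0, against 1.98%. The median over the 67 was 0.08 for repletion minus depletion, -0.03 for depletion minus control and 0.03 for repletion minus control.

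The mTOR branch (15 genes) held both genes that were lower in depletion than in control at an unadjusted p under 0.05. Deptor, an inhibitor that binds mTOR itself, was at -0.93, -0.63, -1.10 and -0.99 in repletion muscles, ran from -2.40 to -0.98 in depletion muscles, and was at -0.74, -0.80, -0.74 and -0.64 in control muscles. All 6 depletion arrays lay below all 4 control arrays, and 2 of 4 repletion arrays lay within the depletion range. Deptor was named for its small unadjusted p, which goes with such a separation. The share of all genes separated in this way was not counted. The difference was -0.88 ± 0.22 for depletion minus control (adjusted p = 0.836) and 0.68 ± 0.20 for repletion minus depletion (adjusted p = 0.935). These comparisons share the depletion arrays. They were -0.66 and 0.56 without depletion replicates 1 and 2. The probe lies at chr7:91742514-91742573.

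Sesn1, a stress-induced gene whose product restrains mTOR complex 1, was at -2.42 ± 0.33 in the 6 depletion muscles (SD) and -1.96 ± 0.14 in the 4 control muscles. It differed by -0.45 ± 0.20 (adjusted p = 0.836). Tbc1d4, an Akt substrate that controls the movement of the glucose transporter GLUT4, was at -1.17 ± 0.16 in the 4 repletion muscles and -1.53 ± 0.25 in the 6 depletion muscles, which put repletion higher by 0.34 ± 0.11 (adjusted p = 0.935). Mtor itself differed by -0.10 ± 0.11 for depletion minus control. Without depletion replicates 1 and 2 these 3 differences were -0.44, 0.37 and -0.16. None of these passed the test.

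At the other nodes of the pathway the depletion minus control differences did not pass the test either (limma's adjusted p from 0.836 to 0.929). Upstream, the growth hormone receptor gene Ghr differed by -0.36 ± 0.28. That value was -0.030 without depletion replicate 1, which was the lowest of all 14 arrays at -0.17, and -0.020 without depletion replicates 1 and 2. The difference was 0.32 ± 0.20 for the IGF2-clearing receptor gene Igf2r and -0.11 ± 0.20 for the receptor inhibitor Grb10, or 0.29 and -0.10 without both arrays. For the PI3 kinase subunit Pik3r1 the difference was 0.33 ± 0.24, and for the kinases Akt1 and Akt2 0.11 ± 0.19 and -0.08 ± 0.14. Without both arrays these were 0.19, 0.09 and -0.13. Downstream, the transcription factor Foxo3 differed by 0.11 ± 0.11 and Slc2a4, which encodes GLUT4, by -0.16 ± 0.14, or 0.09 and -0.29 without them. Igfbp2 differed by 0.46 ± 0.63, and by -0.64 without depletion replicates 1 and 2.

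Genes whose levels most resembled each member over the 14 arrays, with slide means removed, were found by Pearson's r among 13683 genes. For Igf1 they were Mageh1 (r = 0.95) and Stk3 (0.95), and for Igf2 Unc13b and Cd200 (0.94 and 0.93). Igf1r was nearest to Srsf4 and Krt8 (0.96 and 0.95), and Insr to Rnf182 and Or13a26c (0.94 and 0.91). The docking protein gene Irs1 was nearest to Cish and Dennd11 (0.90 each), and Irs2 to Cflar and Eva1c (0.95 and 0.86). Among binding proteins, Igfbp3 was nearest to Camta1 and Lig1 (0.92 and 0.91), Igfbp4 to Tmsb15b2 and Syce3 (0.87 and 0.84), Igfbp5 to Pnkd and Hccs (0.97 and 0.95), and Igfbp6 to Lrrc8e and Tnfrsf11b (0.91 each). These are the highest of many values on 14 arrays that share slides and diets. With slide means left in, r for these pairs ran from -0.43 (Insr with Rnf182) to 0.89 (Igf1 with Stk3). It was -0.31 for Insr with Or13a26c and 0.21 for Igf2 with Unc13b. The pairs were picked for a high r with slide means removed, so these values cannot show whether that likeness is real. Among the 10 genes themselves the highest r was between Igf1 and Igfbp4 (0.77) and the lowest between Igf1r and Igfbp5 (-0.82). With slide means left in, these were 0.65 and -0.31. Both are extremes over all pairs of the 10. Depletion replicate 1 was the highest array for Igf1r (-2.69) and the lowest for Igfbp5 (-2.74), and r without it was not computed.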

How the data were processed

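Per the labels' protocols, Trizol extracts of 14 muscles were labelled with Cy3 for 1-colour arrays. Per the file headers, the deposited scanner files give the intensity of each spot as read by Agilent Feature Extraction 11.5.1.1, the processed signal being background-subtracted by the software within each array and not scaled between arrays. The deposited series table holds the authors' log2 values, normalized between arrays, and served as an alternative; limma is named in the submitters' processing notes without a version.

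Outlier-marked spots were left out (0.669% to 1.05% of an array), each probe's spots were averaged, and levels are the log2 processed signal minus log2 of the 75th percentile (1785 to 2389 over arrays). Between 82.8% and 88.1% of spots were well above background and 0 were saturated; precision is limited by how many arrays there are. Probes well above background on at least 4 arrays with at least 2 values per group were kept: 26391 probes of 16275 genes, 309 of them with a missing value. Of 30367 probes, 18438 were named by accession through the RefSeq gene table, 3168 by symbol, 419 by synonym and 170 by the file, and 8172 had no name. Coordinates are those of the files (rn4).

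The 3 diets were fitted in 1 linear model with slide as a fixed block in limma 3.58.1 (R 4.3.3), with Benjamini-Hochberg adjustment over all probes and calls at an adjusted p under 0.05. Correlations used Python 3.11.15 with scipy 1.17.1. The fit was tested on simulated data.

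Members and gene lists were chosen with earlier results of these data known. Named genes were the 10 members, the fixed pathway nodes (10 with values given), up to 5 further pathway genes per comparison with an unadjusted p under 0.05, and the 2 genes most like each member. A pathway gene and a marker gene on the original lists are not reported here, and list counts leave them out. Ins1 in the closing section was chosen after its values were seen. Alternatives were normexp background correction (offset 50), quantile or median scaling, the authors' values, other filters, outlier spots kept, other blocks, averaging over a gene's probes, array weights, fitting 2 groups alone, the other label of depletion replicate 1, and each array left out.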

Additional observations from a re-analysis of the deposited data

Results flagged for a closer look

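Among 69 groups of arrays of 23 genes, 1 held an array whose distance from the rest of its group was above Dixon's 95% critical value, and chance gives about 1 in 20. It was of a gene around the 10 described above, and 0 of the 30 groups of the 10 genes had such an array. The growth hormone receptor gene Ghr was at 0.46 in control replicate 1, the lowest of 4, with the nearest control array at 1.16.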

How the results depend on the processing

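No call changed for the 10 genes or the rest of the pathway list. Over 15 other settings and 14 fits that each left out 1 array, 0 of 1262 single-gene values reached an adjusted p under 0.05 in limma (lowest 0.584). The number of probes called was 0 in each comparison and setting, except 1 for repletion minus depletion without depletion replicates 1 and 2, a setting chosen after seeing the data. That probe, named after it was seen, was Zp2 (-3.10, adjusted p = 0.027, against -1.40 and 0.935 with all arrays). At an unadjusted p under 0.05 the counts ran over all settings from 318 to 1726 for repletion minus depletion, 773 to 2208 for depletion minus control and 225 to 1014 for repletion minus control, and with the replicate block they were 452, 1303 and 292. The signs of single differences did depend on the setting, and the cause of each was not tested. With array weights, the sign turned for Igf1r (0.0082), Igfbp4 (0.072) and Igfbp5 (-0.077) for repletion minus depletion, and Igfbp3 (0.013) for repletion minus control. With depletion replicate 1 counted as repletion, the sign turned for Igf1r (0.12) and Igfbp5 (-0.44) for repletion minus depletion, and Igfbp3 (0.10) for repletion minus control. Without a slide block, the sign turned for Irs1 (0.00027) and Irs2 (0.056) for repletion minus depletion, and Akt1 (-0.0052) and Igfbp5 (0.12) for depletion minus control, and Igf2 (-0.055), Igfbp5 (0.37) and Igfbp6 (-0.071) for repletion minus control. With normexp background correction, the sign turned for Foxo3 (-0.078) for depletion minus control, and Igf1r (-0.047) for repletion minus control. With only the 2 groups compared in the fit, the sign turned for Igf1 (0.014), Igfbp4 (0.065) and Irs2 (0.059) for repletion minus depletion, and Igf1 (-0.11), Igf2 (-0.13) and Igfbp6 (-0.011) for repletion minus control. With replicate number as a block in place of slide, the sign turned for Igfbp4 (0.062), Irs1 (0.19) and Irs2 (0.21) for repletion minus depletion, and Akt1 (-0.014) for depletion minus control, and Igf2 (-0.055), Igfbp5 (0.37) and Igfbp6 (-0.071) for repletion minus control. With slide as a random block, the sign turned for Igfbp5 (0.093) for repletion minus control. Without depletion replicates 1 and 2, both high in liver genes, the sign turned for Igf1r (0.066), Igfbp5 (-0.27) and Insr (-0.019) for repletion minus depletion, and Igfbp2 (-0.64), Igfbp3 (-0.076), Igfbp5 (0.35) and Irs1 (0.12) for depletion minus control, and Igfbp5 (0.073) for repletion minus control. The median over the 10 genes for repletion minus control was -0.043 with only the 2 groups compared. With normexp the median of all probes was -0.14 for depletion minus control and -0.12 for repletion minus control. In the main fit these medians were -0.021 and 0.013, and values under normexp are to be read against this shift. When single arrays were omitted, signs changed for repletion minus depletion Igf1 (-0.27 to 0.18), Igf1r (-0.18 to 0.055), Igf2 (-0.68 to 0.15), Igfbp4 (-0.26 to 0.24), Igfbp5 (-0.26 to 0.52), Insr (-0.0087 to 0.13), Irs1 (-0.18 to 0.40) and Irs2 (-0.38 to 0.20), for depletion minus control Akt1 (-0.050 to 0.28), Grb10 (-0.25 to 0.032), Igf1 (-0.0042 to 0.35), Igfbp2 (-0.35 to 1.04), Igfbp4 (-0.14 to 0.49), Igfbp5 (-0.81 to 0.33), Igfbp6 (-0.22 to 0.12), Irs2 (-0.14 to 0.70) and Mtor (-0.20 to 0.0052), and for repletion minus control Igf1 (-0.066 to 0.50), Igf2 (-0.36 to 0.98), Igfbp3 (-0.26 to 0.27), Igfbp4 (-0.18 to 0.58), Igfbp5 (-0.48 to 0.069) and Irs2 (-0.28 to 0.67). The median over the 10 genes then ran from -0.070 to 0.32 for depletion minus control, from -0.11 to 0.036 for repletion minus depletion and from -0.11 to 0.22 for repletion minus control. Nothing in the labels ties same-numbered arrays of different diets to each other. A correlation of deviations over 0.1 was found for 8 of 12 same-numbered pairs (from -0.48 to 0.70). The 5 pairs that shared a slide ran from 0.19 to 0.70, and the others from -0.48 to 0.38. The replicate block is therefore only a check.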

Other observations

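Other cell types also differed between single arrays. Repletion replicate 2 stood out in Schwann cell genes, with the myelin gene Mbp at 3.32, against -2.12 to 0.37 on the other 13 arrays. Its mean deviation over the 5 Schwann cell genes was 1.43. It was also the highest of the 4 repletion arrays for Igf2 (4.09), Igf1r (-2.76), Insr (-1.86), Irs1 (-2.82) and Igfbp4 (-0.0039). On the same slide, control replicate 3 was the highest control array for Igf1r (-2.99), Insr (-1.67) and Irs1 (-2.74), but not for Igf2 or Igfbp4. Depletion replicate 2, also on that slide, was the highest depletion array for Insr (-2.003) but not for the other genes named. Depletion replicate 1 was highest in erythroid genes, with a mean deviation of 1.63 over the 3 measured. Their part in the levels of the 10 genes was not tested.

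The probe of the hormone gene Ins1 lay between -2.82 and -2.42 on all 14 arrays, so no array stood out in it. Whether its signal came from Ins1 transcripts was not tested.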
